A study of Homo sapiens with 24 samples.

Results

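The comparison set Capan1 cells carrying short hairpins against both IRAK1 and IRAK4 (shIRAK1+4, 2 arrays) against Capan1 cells carrying the IRAK4 hairpin without the IRAK1 hairpin (shIRAK4, 2 arrays), which makes 4 of the study's 24 arrays. Capan1 and Panc1 are human pancreatic ductal adenocarcinoma lines. Genes were included when their detection p, the authors' measure of a signal against an array's negative controls, fell under 0.01 on the whole array pair of either group, and 10867 of 34595 genes met this. The study profiled both lines on Illumina arrays in 12 groups of 2, with DMSO, an IRAK1/4 inhibitor or hairpins (scramble, shIRAK1, shIRAK4 and shIRAK1+4).

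Hairpins were delivered by retrovirus in a pair of rounds, and all hairpin groups passed through both. In the shIRAK4 cells the IRAK4 hairpin came first, in a vector with puromycin resistance, and a scramble hairpin followed in a vector with neomycin resistance and GFP. In the shIRAK1+4 cells the IRAK1 hairpin came first in the puromycin vector and the IRAK4 hairpin followed in the neomycin and GFP vector. The groups therefore differed in the vector and round of the IRAK4 hairpin as well as in the IRAK1 hairpin, and these cannot be told apart. Both groups were grown in RPMI with 10% serum and selected with puromycin at 1 ug/mL for 48 hours and geneticin at 500 ug/mL for 4 days. The other hairpin groups of both lines had the same serum share and the same selection. The series text places the hairpin work in Panc1 only, while the array labels give hairpin groups in both lines. Nothing in the labels tells if paired arrays were made from different cultures, and the p-values therefore rest on a spread between arrays that may be technical.

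IRAK1 and IRAK4 are kinases of the interleukin-1 and Toll-like receptor pathway. A bound receptor recruits the adaptor MYD88, which assembles IRAK4 and then IRAK1, and the signal passes through TRAF6 and TAK1 to the transcription factor NF-kB and to MAP kinases. NF-kB drives chemokine, cytokine and acute phase genes. HLA class II molecules, which present peptides to helper T cells, are made by antigen-presenting cells and are induced in epithelial cells by interferon gamma.

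Levels are log2 of background-corrected, quantile-normalized signal, so that a difference of 1 is a 2-fold difference, and levels of different genes were not set against each other. Each array detected 10015 to 12090 genes, and the 4 compared arrays 10842 to 12090. The spread between paired arrays, as the root mean square SD across genes, was 0.367 in Capan1 shIRAK1+4 and 0.325 in Capan1 shIRAK4, against 0.165 to 0.306 in the other groups. The 4 compared arrays did not pair by label. The labels were kept throughout, and whether samples were exchanged was not tested, so every shIRAK1+4 value is that of the arrays so labelled. Across the 10867 genes, shIRAK1+4 array 1 correlated best with shIRAK1 array 1 (Pearson's r = 0.9837) and shIRAK1+4 array 2 with shIRAK4 array 2 (0.9806), while the 2 shIRAK1+4 arrays correlated with each other at 0.9687. ShIRAK4 array 1 was nearest to shIRAK1 array 2 (0.9781), and the 2 shIRAK4 arrays correlated at 0.9759. The 2 shIRAK1+4 arrays' differences from the shIRAK4 mean correlated at 0.398 across genes. These correlations are descriptions across genes, and the last shares the shIRAK4 mean between both arrays.

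**Figure D1:**
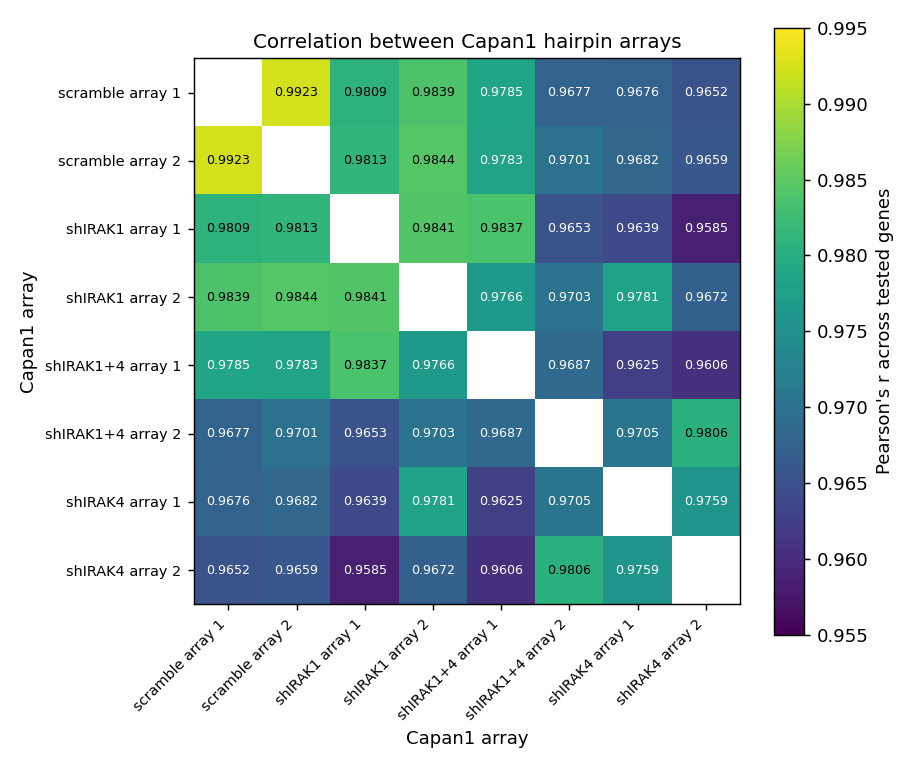
Pearson's r across the 10867 tested genes between each pair of the 8 Capan1 hairpin arrays; both axes list the arrays and the colour gives r. ShIRAK1+4 array 1 stands nearest to shIRAK1 array 1 (0.9837) and shIRAK1+4 array 2 nearest to shIRAK4 array 2 (0.9806), while the scramble arrays correlate at 0.9923.

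The targeted kinases were measured first. IRAK1 was at 9.65 and 9.57 on the shIRAK4 arrays and at 9.11 and 8.62 on the shIRAK1+4 arrays. The groups did not overlap, with both shIRAK1+4 arrays the lower. The difference was -0.74 ± 0.40 (SE, n = 2 and 2) and did not pass the test (limma adjusted p = 0.729). IRAK1 was at 9.56 and 8.98 with shIRAK1 and at 10.48 and 10.43 with scramble, so the shIRAK4 arrays, whose cells carry no IRAK1 hairpin, lay below both scramble arrays. With shIRAK1 against scramble IRAK1 fell by 1.18 (SE 0.26, limma adjusted p = 0.0243). IRAK4 was detected on none of the 4 arrays and was not tested, so the arrays give no check of its knockdown.

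Panc1 gave a larger IRAK1 difference under the same contrast. There IRAK1 was at 11.54 and 11.98 with shIRAK4 and at 8.38 and 8.67 with shIRAK1+4, and it fell by 3.23 (SE 0.28, limma adjusted p = 3.73e-06). The Capan1 difference minus the Panc1 difference was 2.49 ± 0.49 (SE, limma adjusted p = 0.0383 for the interaction). That interaction passed in 3 of 11 other settings, with adjusted p up to 0.280, and its value ranged from 2.24 to 2.73.

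**Figure D2:**
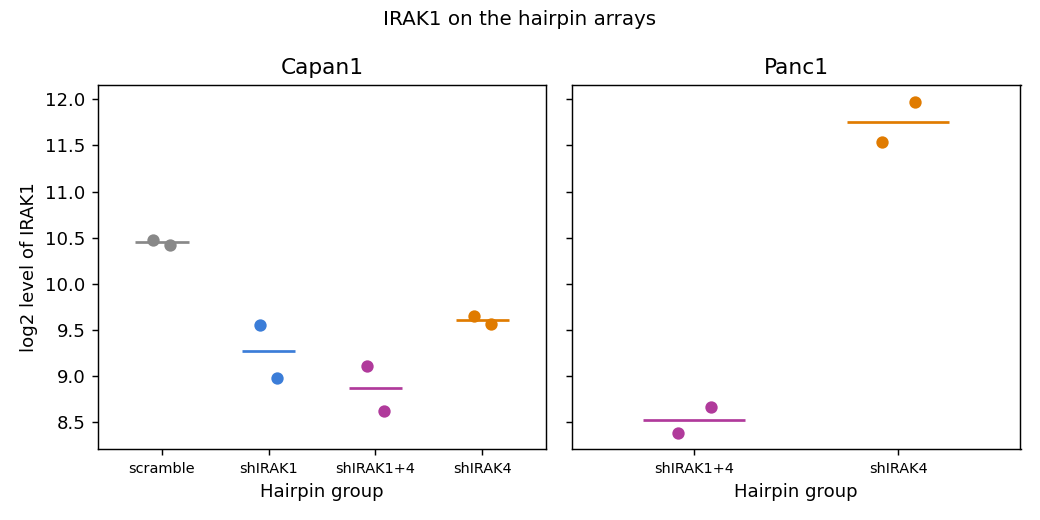
Log2 level of IRAK1 on each array (points) with the group mean (line), for 4 Capan1 and 2 Panc1 hairpin groups. The Panc1 shIRAK1+4 arrays (8.38 and 8.67) lie below the Panc1 shIRAK4 arrays (11.54 and 11.98), while in Capan1 the shIRAK1+4 arrays (9.11 and 8.62) lie nearer to the shIRAK4 arrays (9.65 and 9.57).

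Against shIRAK4, 37 genes passed the test in shIRAK1+4 cells (limma with 1 weight per group, Benjamini-Hochberg adjusted p under 0.05), which is 0.34% of the 10867 tested. Of these, 12 were higher (0.11%) and 25 lower (0.23%). Only 22 of the 37 were detected on all 4 arrays. The others met the detection filter through the group where they were high, and the filter favours a difference in such genes. With the test limited to genes detected on all 4 arrays, 14 passed, 4 higher and 10 lower. The genes that fell were led by the chemokine CCL2, HLA class II genes and acute phase genes, and those that rose included the surface barrier gene SPRR1B, IGFBP1, the phosphatase DUSP5 and the protease MMP10. At an unadjusted p under 0.05 there were 826 genes, and the median difference over all tested genes was 0.01. The count rested on shIRAK1+4 array 1: without it 5 genes passed (ANXA10, CCL2, IGFBP1, MMP10 and TEX101), without shIRAK1+4 array 2 there were 99, and without shIRAK4 array 1 or 2 there were 32 and 41. MMP10 was detected on neither shIRAK4 array and TEX101 on 1 of the 2 shIRAK1+4 arrays. Both therefore met the detection filter through the group where they were high. Both passed with no detection filter. TEX101 did not pass in the authors' normalized table (limma adjusted p = 0.127) or with no background correction (limma adjusted p = 0.0917). Without group weights 407 genes passed, and with the 4 arrays fitted alone only CCL2 did. With median scaling the split moved to 7 higher and 27 lower.

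CCL2, a chemokine that attracts monocytes and an NF-kB target, fell the most. Its level was 12.04 and 11.52 with shIRAK4 and 7.05 and 7.60 with shIRAK1+4. The groups lay far apart, and within each the 2 arrays were close. CCL2 fell by 4.46 (SE 0.46, limma adjusted p = 0.000268), or 21.9-fold, and it passed in 17 of 17 other settings with adjusted p of at most 0.0309. CCL2 was at 6.18 and 5.93 with shIRAK1 and at 4.93 and 5.47 with scramble, below both compared groups. In Panc1 CCL2 was at 12.27 and 10.48 with shIRAK4 and at 9.52 on both shIRAK1+4 arrays, and it fell by 1.85 on the log2 scale (SE 0.33, limma adjusted p = 0.00594). The Capan1 minus Panc1 difference for CCL2 did not pass (-2.60 ± 0.57, limma adjusted p = 0.0858).

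The list of NF-kB and inflammatory targets had 42 tested members, of which 4 fell and none rose, against 0.23% and 0.11% of all tested genes. This list and those below were chosen with earlier results of these data known, so their counts are descriptions. For 21 members both shIRAK1+4 arrays were below both shIRAK4 arrays and for 2 both were above, against 16.9% and 18.9% of all tested genes, and the list's median was -0.58. The other members that fell were SAA1, CXCL6 and SAA2. SAA1, an acute phase apolipoprotein, was at 10.15 and 10.32 with shIRAK4 and at 7.50 and 8.65 with shIRAK1+4. No array of one group reached the other. SAA1 fell by 2.16 (SE 0.32, limma adjusted p = 0.00609). SAA2, its near-identical neighbour on chromosome 11, whose probes may share signal with it, was at 8.45 and 7.64 with shIRAK4 and at 5.83 and 6.58 with shIRAK1+4 and fell by 1.84 (SE 0.36, limma adjusted p = 0.0318). CXCL6, a neutrophil-attracting chemokine, was at 7.81 and 8.22 against 5.66 and 6.31. Its arrays also separated by group, and it fell by 2.03 (SE 0.27, limma adjusted p = 0.00271). Without shIRAK1+4 array 1 the adjusted p was 0.166 for SAA1, 0.505 for SAA2 and 0.0727 for CXCL6, and 1 member of the list passed.

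Several larger differences in the same list did not pass, and they are named here after their values were seen. The neutrophil chemokines CXCL1 and CXCL2 differed by -2.27 (SE 0.72, limma adjusted p = 0.297) and -2.33 (SE 0.69, limma adjusted p = 0.242). CCL20, which attracts CCR6-bearing cells, was at 11.33 and 11.56 with shIRAK4 and at 7.39 and 11.10 with shIRAK1+4. Its 2 shIRAK1+4 arrays lay farther apart than array 2 lay from the shIRAK4 arrays, and the difference of -2.20 did not pass (SE 0.84, limma adjusted p = 0.470).

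Of the HLA class II list, 9 of 17 genes were tested and 4 fell, against 0.23% of all tested genes. All 9 were lower on both shIRAK1+4 arrays than on both shIRAK4 arrays, against 16.9% of all tested genes, and the median was -2.06. One of the 4, UBD, is no class II gene: it encodes a ubiquitin-like modifier induced by interferon gamma and tumour necrosis factor. Without it 3 of 8 fell. Of the 9 tested, 6 were detected on all 4 arrays, while HLA-DPA1 and CD74 met the filter through the shIRAK4 arrays alone. The detection filter favours a fall in genes that enter in this way. With the test limited to genes detected on all 4 arrays, 2 of the list passed and its median was -2.02. HLA-DRA, the alpha chain of HLA-DR, was at 10.57 and 11.37 with shIRAK4 and at 7.65 and 9.69 with shIRAK1+4. The 2 shIRAK1+4 arrays were both lower but lay far apart, array 2 being the nearer to shIRAK4. HLA-DRA fell by 2.30 (SE 0.42, limma adjusted p = 0.0239).

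CD74, the invariant chain that escorts class II molecules, was at 10.10 and 10.38 with shIRAK4 and at 7.29 and 9.07 with shIRAK1+4. HLA-DPA1, the alpha chain of HLA-DP, was at 8.23 and 9.49 against 4.50 and 7.26. Array 1 again held the lower value for both genes, and it did not detect HLA-DPA1, so that the size of that gene's fall depends on a background signal. CD74, whose row holds several probes, was detected on 1 of the 2 shIRAK1+4 arrays. CD74 fell by 2.06 (SE 0.42, limma adjusted p = 0.0441) and HLA-DPA1 fell by 2.98 (SE 0.55, limma adjusted p = 0.0239). UBD was at 10.92 and 9.72 against 8.41 and 8.32, with the 2 shIRAK1+4 arrays close together, and fell by 1.96 (SE 0.35, limma adjusted p = 0.0210).

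The other tested class II genes did not pass. HLA-DMB and HLA-DMA, which form the peptide exchanger HLA-DM, differed by -2.60 (SE 0.59, limma adjusted p = 0.0819) and -1.86 (SE 0.48, limma adjusted p = 0.159). The HLA-DR beta chains HLA-DRB4 and HLA-DRB3, whose probes may share signal with other beta chain genes, differed by -2.09 (SE 0.58, limma adjusted p = 0.210) and -0.71 (SE 0.35, limma adjusted p = 0.676), and the lysosomal protease CTSS by -0.37 (SE 0.34, limma adjusted p = 0.924). The class II calls turned on the shIRAK1+4 arrays: without array 1 none of the 9 passed and HLA-DRA, CD74 and HLA-DPA1 differed by -1.28, -1.17 and -1.60, while without array 2 there were 6 and these genes differed by -3.32, -2.95 and -4.36, the last against array 1, which did not detect HLA-DPA1. Without shIRAK4 array 1 or 2 there were 2 and 1. The count of 4 also depended on the setting. It was 0 with no detection filter, with the spread of the 8 Capan1 hairpin arrays and with the 4 arrays fitted alone. In the authors' normalized table it was 2, with no background correction 3, with median scaling 5 and with no weights 7. With scramble, HLA-DRA was at 6.99 and 6.93 and CD74 at 6.98 and 6.90, below all 4 compared arrays.

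Few immune cell markers were detected beside the class II genes. Of 15 markers 2 were tested, CD68 and LYZ, and neither passed. The log2 of their summed level was 8.77 and 9.38 with shIRAK4 and 8.76 and 9.58 with shIRAK1+4, so the ranges overlapped. PTPRC, CD3E, MS4A1 and CD14 were not detected on both arrays of either group. Of 12 ductal markers 11 were tested and none passed (limma adjusted p), with keratin 19 (KRT19) between 13.14 and 14.05 on the 4 arrays. Among acinar markers 3 of 12 were tested, among fibroblast and stellate markers 1 of 13 and among endocrine markers 0 of 8, with none past the test. Of 9 endothelial markers 2 were tested, and VWF, a clotting glycoprotein near background at 5.48 and 5.24 with shIRAK4, was not detected on either shIRAK1+4 array (4.30 and 4.52) and was at least 1.11-fold lower (limma adjusted p = 0.0312).

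**Figure D3:**
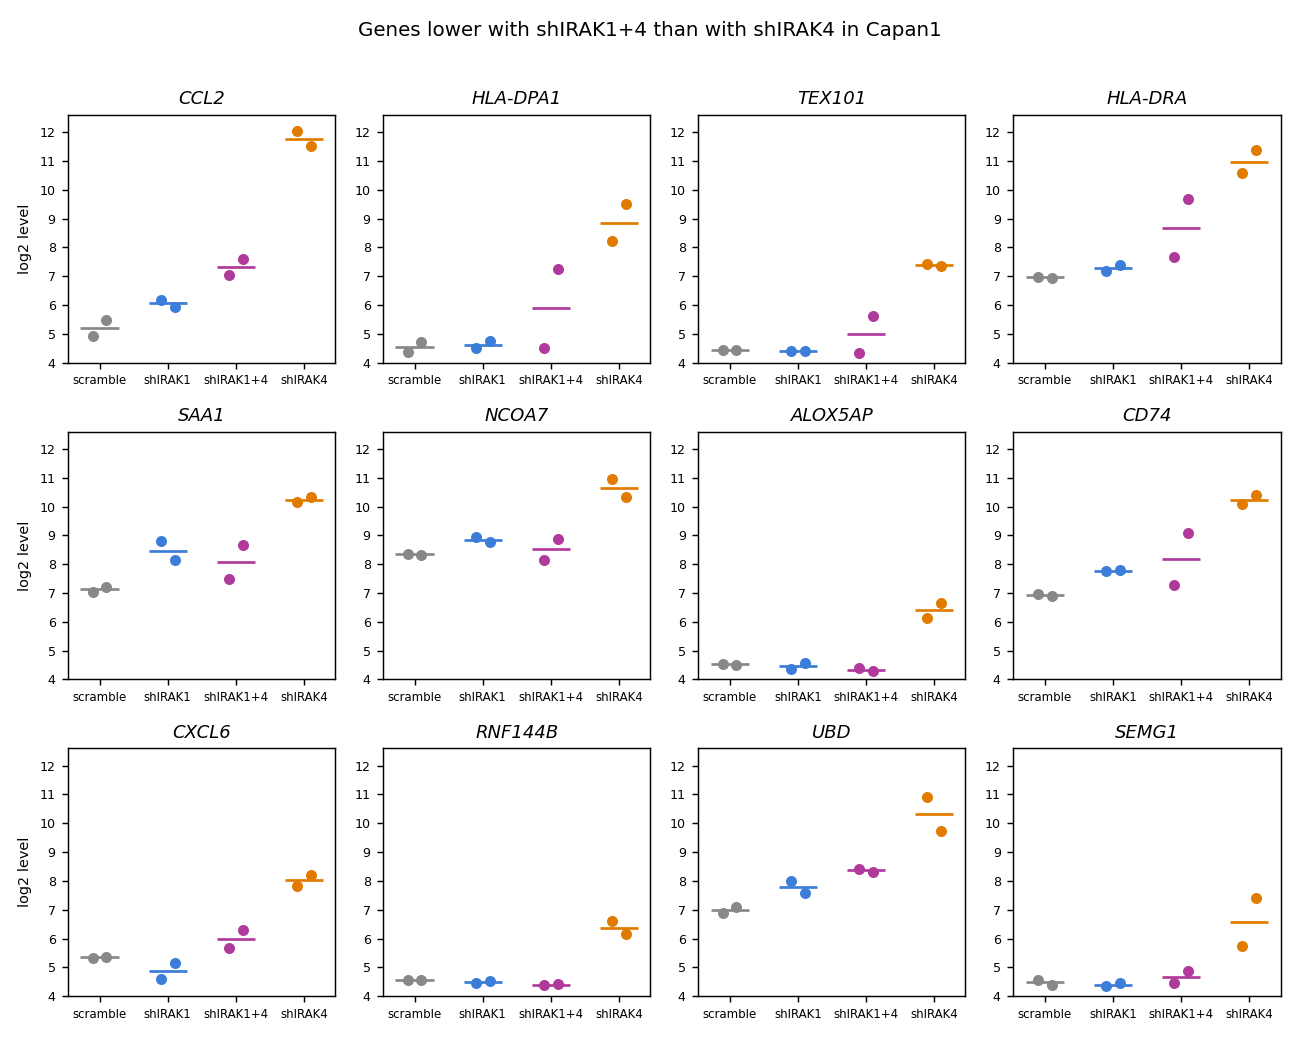
Log2 level on each Capan1 hairpin array (points) and the mean of 2 arrays (line) for the 12 genes that fell most. In each panel both shIRAK1+4 arrays lie below both shIRAK4 arrays; CCL2 is at 7.05 and 7.60 against 12.04 and 11.52.

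Other genes that fell had varied roles. TEX101, a membrane glycoprotein best known from testis germ cells, was at 7.41 and 7.37 with shIRAK4 and at 4.33 and 5.64 with shIRAK1+4, where array 1 did not detect it and the size is open to background. It fell by 2.41 (SE 0.28, limma adjusted p = 0.000549). NCOA7, a nuclear receptor coactivator, was at 10.95 and 10.34 against 8.16 and 8.86. Both groups kept apart, and NCOA7 fell by 2.14 (SE 0.31, limma adjusted p = 0.00544). SEMG1, a protein of the semen coagulum, was at 5.75 and 7.42 with shIRAK4, far apart, and was not detected on either shIRAK1+4 array (4.44 and 4.86). SEMG1 fell (limma adjusted p = 0.0281), and no size is given because the lower side was not above background.

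Neither shIRAK1+4 array detected ALOX5AP, the protein that hands arachidonic acid to 5-lipoxygenase, or RNF144B, a ubiquitin ligase. ALOX5AP was at 6.15 and 6.66 with shIRAK4 and was at least 2.30-fold lower with shIRAK1+4 (limma adjusted p = 0.0281). RNF144B was at 6.59 and 6.16 and was at least 2.25-fold lower (limma adjusted p = 0.0312). These bounds set the shIRAK4 mean against the lowest signal above background on the shIRAK1+4 arrays. The remaining genes that fell included BPIFB1 (C20ORF114 in the files), a secreted airway and glandular protein, by 1.81, the oxidase organiser NOXO1 by 1.64, the scaffold IQGAP2 by 1.57, RARRES1, a retinoid-responsive gene, by 1.54, GAS6, the ligand of the AXL family of receptors, by 1.53 and the aldehyde dehydrogenase ALDH3A1 by 1.49 (limma adjusted p from 0.00630 to 0.0473). NOXO1, RARRES1 and GAS6 were each detected on 1 of the 2 shIRAK1+4 arrays, where NOXO1 was at 4.93 and 5.25, near background. C2CD4B, a gene induced by inflammatory cytokines in endothelium, was not detected on either shIRAK1+4 array and was at least 1.71-fold lower (limma adjusted p = 0.0135). PARM1 fell by 1.33, TMEM139 fell by 1.25, the unnamed transcript HS.213061 fell by 1.06 and CUEDC1 fell by 1.01 (limma adjusted p from 0.0312 to 0.0441).

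Of the 25 genes that fell, 24 had a lower mean with scramble than with shIRAK4 and all 25 a lower mean with shIRAK1. In 17 the shIRAK1+4 mean lay between the scramble and shIRAK4 means. ShIRAK1+4 array 2 was nearer to the shIRAK4 mean than array 1 for 20 of the 25. Of the 12 genes that rose, 1 had a lower mean with scramble than with shIRAK4 and none a lower mean with shIRAK1. In 4 of the 12 the shIRAK1+4 mean lay between the scramble and shIRAK4 means. These counts share the shIRAK4 arrays with the choice of the genes. They stand without a share over all tested genes and are given as a description.

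Among the genes that rose, SPRR1B, a cornified envelope protein of stratified epithelia, was at 4.50 and 5.90 with shIRAK4 and at 7.72 and 7.17 with shIRAK1+4. The groups did not overlap, although the 2 shIRAK4 arrays were far apart and array 1 did not detect the gene. SPRR1B rose by 2.24 (SE 0.42, limma adjusted p = 0.0282). IGFBP1, which binds insulin-like growth factors, was at 6.78 and 7.39 against 8.69 and 9.81 and rose by 2.16 (SE 0.33, limma adjusted p = 0.00726). AKAP12, a scaffold that anchors protein kinase A, was at 5.41 and 5.52 against 7.92 and 6.90 and rose by 1.95 (SE 0.30, limma adjusted p = 0.00726). For both genes the shIRAK4 arrays lay closer together than the shIRAK1+4 arrays. AKAP12, whose row holds several probes, was detected on 1 of the 2 shIRAK4 arrays.

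DUSP5, a phosphatase that dephosphorylates ERK in the nucleus, was at 9.43 and 8.99 with shIRAK4 and at 11.42 and 10.65 with shIRAK1+4. Both shIRAK1+4 arrays were clearly higher, near the scramble level of 10.96 on both arrays. DUSP5 rose by 1.83 (SE 0.29, limma adjusted p = 0.00786). MMP10, a matrix metalloproteinase, was not detected on either shIRAK4 array (4.73 and 4.91) and was at 6.34 and 6.74 with shIRAK1+4, at least 2.73-fold higher (limma adjusted p = 0.00521). With scramble MMP10 was at 6.95 and 6.89 and with shIRAK1 at 4.90 and 4.86.

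The other 7 genes that rose differed by 1.07 to 1.85. They were NTSR1, the neurotensin receptor, ANXA10, a calcium-dependent phospholipid-binding protein of gastric epithelium, TUBB3, a beta tubulin, RHOD, a small GTPase, CCNYL1, a cyclin relative, SCEL, a cornified envelope precursor, and the unnamed transcript LOC100216001. ANXA10 was at 9.86 and 9.55 with shIRAK4 and at 10.70 and 11.62 with shIRAK1+4, and rose by 1.46 (SE 0.25, limma adjusted p = 0.0135). NTSR1 passed closest to the threshold (limma adjusted p = 0.0484).

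**Figure D4:**
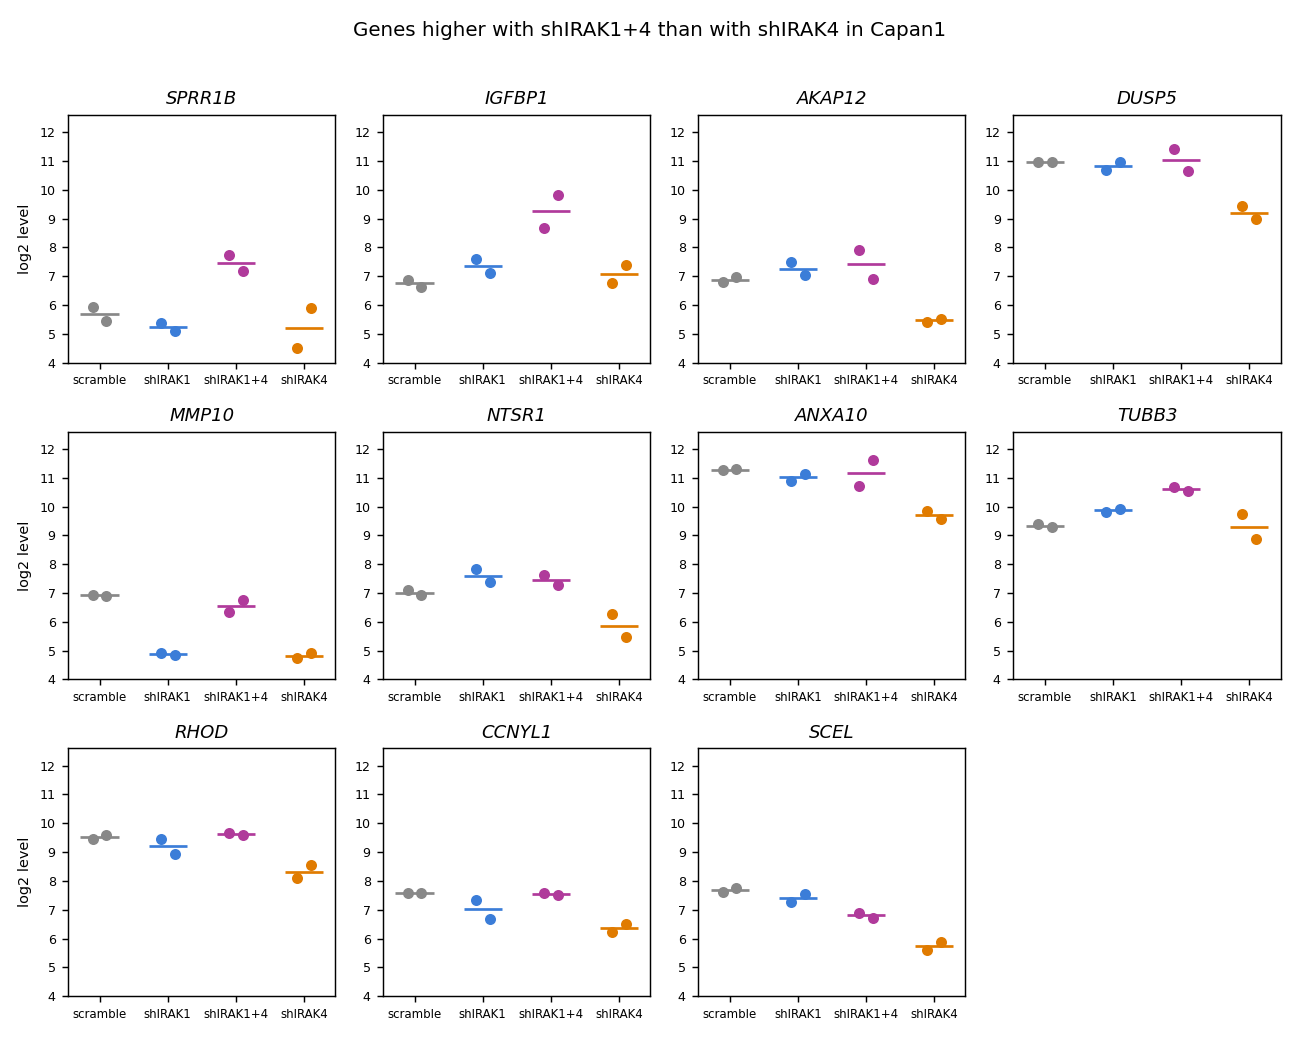
Log2 level on each Capan1 hairpin array (points) and the mean of 2 arrays (line) for the 11 named genes that rose. In each panel both shIRAK1+4 arrays lie above both shIRAK4 arrays; MMP10 is at 6.34 and 6.74 against 4.73 and 4.91.

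Promoter windows of the genes that moved, from 250 bases before to 50 bases after the gene start (RefSeq, GRCh38.p14), are shown where they hold a kB-like pattern (GGG, any 2 bases, then TTTCC) or an AP-1 pattern (TGANTCA), with the matches in capitals. Of the 37 genes, 26 had a window, 17 that fell and 9 that rose. ALDH3A1, CCL2, CUEDC1, DUSP5, HLA-DRA, HS.213061, IGFBP1, LOC100216001, SAA1, SAA2 and VWF had no entry. In all, 12 patterns were searched on both strands, 3 of a CCAAT box, 3 of an X box, 5 kB-like and 1 of AP-1, and the 2 shown were chosen after their matches were seen. The kB-like pattern was in 1.91% of 35116 windows and in 3 genes that fell, CD74, CXCL6 and UBD, and 1 that rose, AKAP12. The AP-1 pattern was in 7.71% of windows, in none of the 17 genes that fell and in 4 that rose, SPRR1B, MMP10, TUBB3 and SCEL. Looser kB-like patterns, in which the third, the second or the first T of TTTCC could be any base, were in 5.68%, 5.99% and 6.52% of windows, and the last also matched HLA-DPA1 and RHOD. The strict pattern with AA as the free bases matched CXCL6 alone of the 26 genes with a window and was in 0.145% of windows. Of the CCAAT box patterns, ATTGGN was in 34.5% of windows and in 5 genes that fell and 4 that rose, GATTGG in 15.1% and in 1 and 2, and CTGATTGG in 3.97% and in none. None of the X box patterns, which were in 0.14%, 0.0456% and 0.0142% of windows, matched any of the 26 genes. A match is a run of letters in the window and was not measured as a binding site. The windows, on GRCh38.p14 and printed 5′ to 3′ on the gene's strand, are CD74 at chr5:150412861-150413160 (minus strand), CXCL6 at chr4:73836428-73836727 (plus strand), UBD at chr6:29559683-29559982 (minus strand), AKAP12 at chr6:151341456-151341755 (plus strand), SPRR1B at chr1:153030953-153031252 (plus strand), MMP10 at chr11:102780579-102780878 (minus strand), TUBB3 at chr16:89921675-89921974 (plus strand), SCEL at chr13:77535456-77535755 (plus strand).
CD74: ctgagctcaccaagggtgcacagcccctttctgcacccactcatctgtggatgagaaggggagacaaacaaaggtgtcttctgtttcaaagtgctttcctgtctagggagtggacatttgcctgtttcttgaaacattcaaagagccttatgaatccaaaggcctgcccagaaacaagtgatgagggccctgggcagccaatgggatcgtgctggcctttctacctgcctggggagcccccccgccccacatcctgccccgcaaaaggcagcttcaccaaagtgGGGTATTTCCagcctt
CXCL6: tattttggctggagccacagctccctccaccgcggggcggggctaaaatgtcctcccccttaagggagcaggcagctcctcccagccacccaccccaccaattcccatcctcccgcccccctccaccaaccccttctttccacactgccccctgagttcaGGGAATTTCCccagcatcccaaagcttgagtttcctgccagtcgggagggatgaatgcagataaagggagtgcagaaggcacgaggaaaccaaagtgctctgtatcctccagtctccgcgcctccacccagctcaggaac
UBD: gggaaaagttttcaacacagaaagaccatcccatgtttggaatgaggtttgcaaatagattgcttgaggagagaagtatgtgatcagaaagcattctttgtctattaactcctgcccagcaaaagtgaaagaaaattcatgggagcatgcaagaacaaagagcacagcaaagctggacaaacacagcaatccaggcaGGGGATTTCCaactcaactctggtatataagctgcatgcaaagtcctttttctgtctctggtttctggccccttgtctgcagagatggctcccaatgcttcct
AKAP12: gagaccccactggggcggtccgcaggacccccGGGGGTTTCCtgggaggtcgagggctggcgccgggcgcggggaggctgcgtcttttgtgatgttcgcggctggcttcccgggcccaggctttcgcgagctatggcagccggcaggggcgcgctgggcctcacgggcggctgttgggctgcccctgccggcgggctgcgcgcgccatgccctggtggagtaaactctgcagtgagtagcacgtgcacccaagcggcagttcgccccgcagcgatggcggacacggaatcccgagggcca
SPRR1B: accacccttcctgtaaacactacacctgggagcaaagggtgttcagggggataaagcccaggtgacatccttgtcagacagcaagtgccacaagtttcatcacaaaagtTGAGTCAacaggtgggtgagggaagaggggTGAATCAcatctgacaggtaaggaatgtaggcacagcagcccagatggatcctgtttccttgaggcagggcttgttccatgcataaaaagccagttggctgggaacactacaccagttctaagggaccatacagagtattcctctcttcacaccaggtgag
MMP10: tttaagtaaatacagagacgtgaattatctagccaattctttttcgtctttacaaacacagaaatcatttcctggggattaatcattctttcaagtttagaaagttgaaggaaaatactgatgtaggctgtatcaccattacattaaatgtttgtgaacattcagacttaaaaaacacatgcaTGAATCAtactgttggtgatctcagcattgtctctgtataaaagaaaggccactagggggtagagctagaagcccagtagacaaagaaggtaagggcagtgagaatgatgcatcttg
TUBB3: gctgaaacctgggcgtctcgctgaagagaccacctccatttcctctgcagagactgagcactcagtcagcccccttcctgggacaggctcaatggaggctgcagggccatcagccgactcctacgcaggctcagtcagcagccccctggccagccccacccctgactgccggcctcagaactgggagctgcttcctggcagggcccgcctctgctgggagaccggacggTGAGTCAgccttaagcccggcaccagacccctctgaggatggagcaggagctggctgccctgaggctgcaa
SCEL: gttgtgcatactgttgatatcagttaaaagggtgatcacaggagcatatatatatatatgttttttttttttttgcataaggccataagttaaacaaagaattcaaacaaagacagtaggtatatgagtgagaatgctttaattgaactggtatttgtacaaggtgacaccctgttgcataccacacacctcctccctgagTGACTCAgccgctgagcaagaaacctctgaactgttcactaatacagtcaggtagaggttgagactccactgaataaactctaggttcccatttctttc

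Pathway members upstream of NF-kB did not pass the test. Of 44 genes in the IL-1 and Toll-like receptor list 23 were tested, 0 passed (limma), 9 were lower on both shIRAK1+4 arrays and 2 higher (16.9% and 18.9% of all tested genes), and the median was -0.12. The cytokine IL1B was at 6.60 and 6.21 with shIRAK4 and at 5.41 and 5.71 with shIRAK1+4, a difference of -0.84 (SE 0.24, limma adjusted p = 0.210). IL1A was at 7.32 and 7.19 against 6.46 and 6.32, a difference of -0.86 (SE 0.42, limma adjusted p = 0.668). For both cytokines the groups were apart and the shIRAK1+4 arrays lower. PELI1, a ubiquitin ligase that acts on IRAK1, differed by -0.60 (SE 0.31, limma adjusted p = 0.724), the adaptor MYD88 by -0.14 (SE 0.27, limma adjusted p = 0.980), the kinase relative IRAK2 by -0.01 (SE 0.40, limma adjusted p = 1) and the inhibitory relative IRAK3 by -0.40 (SE 0.28, limma adjusted p = 0.862).

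In the lists of immediate early genes, MAP kinase feedback and output, and EGF receptor ligands and receptors, members higher on both shIRAK1+4 arrays outnumbered members lower on both. Only DUSP5 passed. Of 20 tested immediate early genes none passed (limma), 9 were higher on both shIRAK1+4 arrays and 0 lower, and the median was 0.61 with a range of -0.25 to 1.61. Among 15 tested genes of MAP kinase feedback and output DUSP5 alone passed, 5 were higher on both arrays and 0 lower, and the median was 0.37. Of 6 tested EGF receptor ligands and receptors none passed and 5 were higher on both arrays, and the median was 0.74. Both arrays were higher in 18.9% of all tested genes. The median level of the immediate early genes was 7.16 and 7.72 with shIRAK4 and 8.61 and 7.93 with shIRAK1+4. For MAP kinase feedback and output it was 8.07 and 7.31 against 8.30 and 7.85, and the ranges overlapped. For the EGF receptor list it was 6.98 and 7.60 against 7.68 and 8.09. In Panc1 the same contrast gave medians of -0.17, -0.13 and -0.48 in that order, over 18, 15 and 2 tested genes. There 2 immediate early genes passed and were lower. FOSL1, an AP-1 subunit named after its value was seen, was at 5.91 and 6.29 with shIRAK4 and at 8.64 and 6.78 with shIRAK1+4, with array 1 far above the rest, and its difference of 1.61 did not pass (SE 0.57, limma adjusted p = 0.403).

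The lists of type I interferon response, HLA class I and peptide loading, mitosis and DNA replication held no called member. Over all tested genes 16.9% were lower and 18.9% higher on both shIRAK1+4 arrays, beside which the next counts are to be read. Of 29 tested type I interferon response genes 14 were lower on both arrays and 2 higher, with a median of -0.28. Among 14 tested genes of HLA class I and peptide loading 8 were lower and 0 higher, with a median of -0.29. Mitosis genes gave 18 lower and 1 higher of 38 tested and a median of -0.31, while DNA replication genes gave 6 and 1 of 41 and a median of -0.0004. Ribosomal protein genes, 27 tested, had a median of 0.04. Across the 30 lists that are not cell type markers, SPRR1B was the only call of the squamous and surface differentiation list (21 tested) and MMP10 that of the extracellular matrix list (22 tested).

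**Figure D5:**
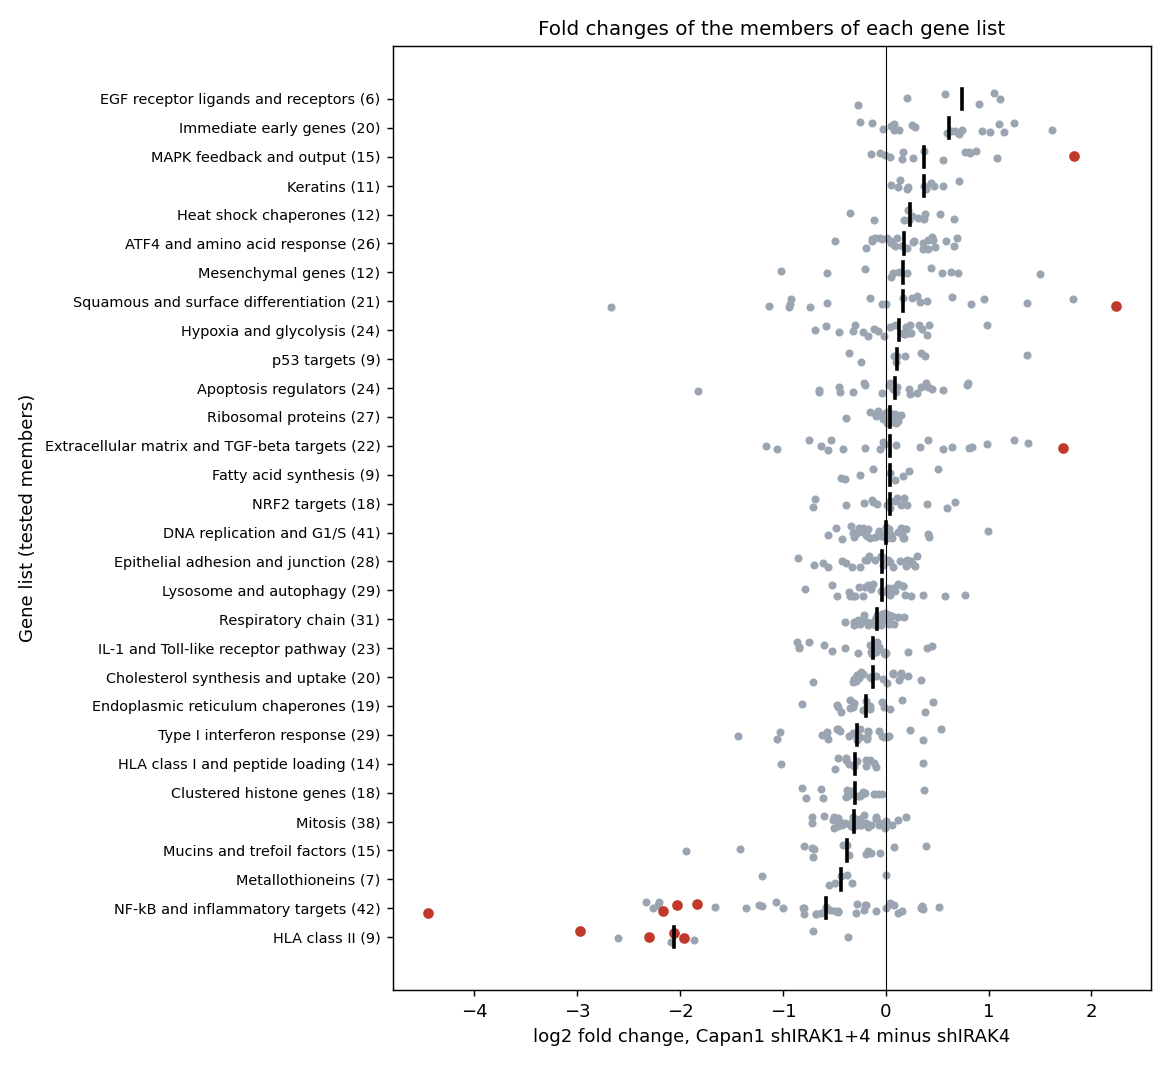
Log2 fold change, shIRAK1+4 minus shIRAK4 in Capan1, of each tested member of 30 gene lists (points, red where the adjusted p was under 0.05) with the list's median (bar); the number of tested members follows each name. The HLA class II list has the lowest median (-2.06) and the EGF receptor list the highest (0.74).

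Panc1, on separate arrays, served as the same contrast in another line. There 118 of 10446 tested genes passed (1.13%), 39 higher (0.373%) and 79 lower (0.756%). Over the 9089 genes tested in both lines the differences correlated at r = 0.153 (Spearman's rho = 0.139), given as a description across genes. Of the 25 genes that fell in Capan1 only 6 were tested in Panc1, with 3 lower, 3 higher and 1 past the test, CCL2. Of the 12 that rose 6 were tested, with 3 higher, 3 lower and none past the test. The difference between the lines passed for 33 of 12224 genes (0.27%), 23 of them positive (0.188%) and 10 negative (0.0818%), and for 2 without Capan1 shIRAK1+4 array 1. CCR7, a chemokine receptor, was at 4.35 and 4.49 with shIRAK4 and at 4.25 and 4.34 with shIRAK1+4 in Capan1 and was detected on none of these arrays, while in Panc1 neither shIRAK4 array detected it (4.37 and 4.40) and it was at 9.37 and 9.29 with shIRAK1+4, at least 17.1-fold higher (limma adjusted p = 2.14e-14).

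The IRAK1 hairpin was also added to cells without an IRAK4 hairpin. Between shIRAK1+4 and shIRAK4 the vector and round of the IRAK4 hairpin changed as well. A difference between the 2 comparisons is therefore not of the IRAK1 hairpin alone. In Capan1 shIRAK1 against scramble, 236 of 10696 genes passed (2.21%), 136 higher (1.27%) and 100 lower (0.935%), with 76 to 156 without each array in turn. Over 10052 shared genes its differences correlated with those of shIRAK1+4 against shIRAK4 at r = 0.013 (Spearman's rho = 0.034), as a description. The difference between adding the IRAK1 hairpin with and without the IRAK4 hairpin passed for 76 of 11511 genes (0.66%), 23 positive (0.2%) and 53 negative (0.46%), and for 43 without shIRAK1+4 array 1. For 17 of the 25 genes that fell and 7 of the 12 that rose this difference passed in the same direction, and since the 4 compared arrays chose the genes this is a description. CCL2 gave -5.31 ± 0.56 (SE, limma adjusted p = 5.6e-05), with shIRAK1 against scramble at 0.85 ± 0.31 (SE, limma adjusted p = 0.198). IL1A was not detected on either scramble array (4.55 and 4.98) and was at 8.85 and 7.24 with shIRAK1 (limma adjusted p = 1.57e-06), while it differed by -0.86 (SE 0.42) between shIRAK1+4 and shIRAK4.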

How the data were processed

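RNA of 24 cell line samples, 2 per group, was measured on 1-colour Illumina arrays. The deposited values are log2 signals per gene with a detection p-value, and a second deposited table holds log2 normalized values. GenomeStudio 2011 is named in the submitters' processing notes, and the authors' background step is not given in the sources used here. The table's 34595 rows name genes, of which 27191 have the detection steps of 1 probe. In rows of several probes the detection p often missed bright signals, 39.7% of those over a log2 of 8, and no bound is given for such rows.

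Signals were made linear, corrected by normexp with an offset of 16, quantile normalized over 24 arrays and tested with limma 3.58.1 in R 4.3.3, with 12 group means, 1 weight per group and Benjamini-Hochberg adjustment over all tested genes, threshold 0.05. The background mean and SD came from signals at detection p near 0.5, 0.16 and 0.84. This step replaced limma's own function after the files were seen, because that function gave far larger SDs, and it is kept as an alternative. Arrays have no read depth, and 2 arrays a group limit the precision.

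Named genes were IRAK1 and IRAK4, the 12 largest rises and falls with a symbol and non-overlapping arrays, 4 members of each list with over 1 call, IL-1 pathway genes detected on all 4 arrays and the 3 largest interaction terms each way. Genes outside the rule are marked as chosen after their values were seen, or are further called genes and list members. Members and lists were chosen with earlier results of these data known. The steps were tested on simulated data. Alternatives covered weights, arrays fitted, scaling, background, offset, detection filter, replicate block, a minimum fold and each array left out. Capan1 inhibitor against DMSO was also computed with the same model and is not reported, because so large a share of genes passed that counts of members could not be read against it. Symbols were updated through RefSeq: 17761 rows matched a current symbol, 3306 1 older symbol and 13528 none.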

Additional observations from a re-analysis of the deposited data

Results flagged for a closer look

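Differences between lines passed the interaction test for the following genes, given as the shIRAK1+4 minus shIRAK4 difference in Capan1 minus that in Panc1 (log2, limma adjusted p under 0.05). The positive terms were 3.57 for MT1M, a metallothionein, 2.71 for NES, an intermediate filament protein, 2.49 for IRAK1, 2.44 for NTSR1, 2.18 for IGFBP1, 2.09 for AKAP12, 1.57 for MMP10 and 1.18 for SCEL. The negative terms were -5.07 for CCR7, -2.22 for SAA1, -2.15 for TEX101 and -2.10 for CXCL6. CCR7 and MT1M were not detected on any of the 4 Capan1 arrays, and CCR7 was not detected with shIRAK4, nor MT1M with shIRAK1+4, in Panc1, so their terms are fitted values set against background and not sizes of a difference. MT1M was at 7.44 and 9.18 with shIRAK4 and at 4.60 and 4.50 with shIRAK1+4 in Panc1, at least 8.63-fold lower. NES was at 9.52 and 9.70 against 7.08 and 7.10 in Panc1, and at 6.01 and 5.36 against 6.56 and 5.18 in Capan1. CCR7 passed in 11 of 11 other settings, MT1M in 9, NES and TEX101 in 8, CXCL6 and NTSR1 in 7, IGFBP1 and SAA1 in 4, AKAP12 and IRAK1 in 3, MMP10 in 2 and SCEL in 1. SAA1, TEX101, CXCL6, IGFBP1, MMP10 and SCEL were near background in Panc1, between 4.23 and 4.80 on its 4 arrays, and were detected on none of them.

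In Capan1 the difference with the IRAK4 hairpin and the difference without it were unlike for the next genes, given as (shIRAK1+4 minus shIRAK4) minus (shIRAK1 minus scramble). The first difference also holds the vector and round of the IRAK4 hairpin, which cannot be told apart from the IRAK1 hairpin. The positive terms were 3.89 for TH, the rate-limiting enzyme of dopamine synthesis, 3.80 for SPP1, which encodes osteopontin, 3.76 for MMP10, 2.69 for SPRR1B, 1.96 for DUSP5, 1.73 for ANXA10, 1.72 for CCNYL1, 1.63 for RHOD and 1.33 for SCEL. The negative terms were -5.31 for CCL2, -4.14 for IL1A, -3.79 for DEFB1, an epithelial defensin, -3.51 for SAA1, -3.06 for HLA-DPA1, -2.90 for CD74, -2.74 for UBD, -2.63 for NCOA7, -2.62 for HLA-DRA, -2.37 for TEX101 and -1.57 for CXCL6. TH was at 8.41 and 8.14 with scramble and between 4.44 and 4.95 in the other 3 hairpin groups, so its term comes from the scramble arrays. SPP1 passed in 3 of 11 other settings, and its 2 shIRAK4 arrays were at 10.27 and 7.05. CCL2, IL1A, DEFB1, MMP10, NCOA7, SAA1, TH and UBD passed in all 11 run, CD74 and TEX101 in 10, ANXA10 and CCNYL1 in 9, DUSP5, HLA-DRA, SCEL and SPRR1B in 8, RHOD in 5, and CXCL6 and HLA-DPA1 in 4. Several terms rest on groups at background and are fitted values, not sizes: neither array detected MMP10 with shIRAK4 or shIRAK1, IL1A with scramble, or HLA-DPA1 and TEX101 with shIRAK1 or scramble, and 1 of 2 arrays missed SPRR1B with shIRAK4 and with shIRAK1, CXCL6 with shIRAK1, CCL2 with scramble, and HLA-DPA1 and TEX101 with shIRAK1+4. TH was detected on both arrays with scramble only.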

How the results depend on the processing

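None of the 37 genes changed direction in the 17 settings run, each where it was tested, but in many settings none could. Changing only the weights, the source of the spread or the detection filter leaves a difference as it was. The arrays of the 37 genes did not overlap between the groups, so leaving out 1 array could not reverse a direction. Most calls depended on the setting. The 37 became 407 with no weights (37 shared), 6 with the spread of the 8 Capan1 hairpin arrays (4 shared), 1 with the 4 arrays alone or quantile normalized over those 4, 20 in the authors' normalized table, 16 with no detection filter, 14 among genes detected on all 4 arrays, 2 for a fold of at least 1.5, and 58 with limma's own background SD (an alternative chosen after seeing the data). Leaving out each array gave 5 to 99. The 12 called list members became 44, 2, 1, 1, 6, 7 and 1 with no weights, the 8 arrays, the 4 arrays, quantile over 4, no filter, all 4 detected and the minimum fold, and 2 to 27 without each array. The replicate numbers are not stated to mark a batch, and the same-numbered deviations of shIRAK4 and shIRAK1+4 correlated at 0.219 over 2 pairs; with the replicate block 45 genes passed, 36 of the 37 among them, and 14 list members.

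The Panc1 count of 118 became 66 with median scaling and 71 to 118 without each array. For shIRAK1 against scramble, 236 became 142 with no weights, 64 with median scaling and 76 to 156 without each array. The 33 differences between lines became 134, 8 and 7 with no weights, median scaling and the authors' table, and 2 to 77 without each array (2 without shIRAK1+4 array 1, 13 and 16 without Panc1 shIRAK4 array 2 and Panc1 shIRAK1+4 array 1). The 76 differences by the IRAK4 hairpin became 175 with no weights, 43 with median scaling and 43 to 94 without each array. The causes of these changes were not tested. Leaving out arrays in these 4 comparisons was added after seeing the data. Genes within a small distance of background, such as VWF, are limited by signal over background.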
